A study of Hordeum vulgare with 6 samples.

Results

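The 20 genes described here encode proteins that move ions, nutrients or other small molecules across membranes and belong to the genes that the study lists as both bound by HvMADS1 and changed in *mads1* barley. They were found by words in the annotation of that list, such as transporter, carrier, permease, efflux and ATPase. The words matched 21 annotations, and 1 match, an auxin efflux carrier, was dropped because it is on a further gene list of the study. The other genes of the bound list number 585, and the deposited table holds 26933 genes in all. Binding was mapped by the study in plants carrying an HvMADS1-eGFP transgene, and the binding signal itself is not analysed here. Because the study drew its list from differences between these same libraries, the differences between *mads1* and WT given below describe the chosen genes and were not tested for them.

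RNA was sequenced from 3 *mads1* and 3 WT samples of the barley cultivar Golden Promise, all grown normally and taken at W7.5, a stage named on Waddington's scheme of spike development. *mads1* plants carry a CRISPR-Cas9 knockout of *HvMADS1*, a floral MADS-box gene, and the sources used here do not say which of the study's knockout lines gave the RNA. Each sample pooled tissue of several plants, named spikelet in the labels and lemma and awn in the methods. Values are FPKM, fragments scaled to gene length and library size, so levels can be compared between genes. In the text a log2 difference is the mean of log2(FPKM + 1) in *mads1* minus that in WT, which understates the change of genes with few FPKM. In bulk tissue, fewer cells of a type and less RNA per cell cannot be told apart.

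Summed over genes, FPKM came to between 939663 and 966119 in the *mads1* libraries and between 993575 and 994495 in the WT libraries. The number of reads is unknown, and the steps between low values put the relative depths at roughly 0.930 to 1.05 times that of WT replicate 3. Enough FPKM for a test was found for 17996 genes. In limma's fit, 14.5% of these were lower and 6.6% higher in *mads1*, with a threshold of 0.05 on the adjusted p and a fold change limit of 1.5. *HvMADS1* itself is not analysed here, so the labels were not checked against the targeted gene. *HvDL*, a lemma and awn gene, was at 53.9, 49.8 and 65.7 FPKM in *mads1* and at 80.6, 96.4 and 96.5 FPKM in WT, so this marker was present in all 6 libraries.

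WT replicate 1 stood apart at the genes described here. Of the 18 transport genes with lower FPKM in *mads1*, 16 had their highest WT value in that library. Over all genes tested, it held the highest WT value for 33.9%. The same library led for 85.3% of the 504 other bound genes that were lower in *mads1*, and for 72.4% of the 2157 genes called lower outside the bound list, so its lead was shared by lower genes in general. Genes annotated as laccase 17, an enzyme of lignin formation, and as myb domain protein 83, a regulator of secondary walls, moved in the same way. The laccase 17 gene on chromosome 3H was at 0.09, 0.16 and 0.1 FPKM in *mads1* and at 18.4, 8.36 and 8.8 FPKM in WT, and the gene on chromosome 4H at 0, 0.04 and 0 FPKM in *mads1* and at 19.5, 6.15 and 7.24 FPKM in WT. The myb domain protein 83 gene had 0.07, 0.2 and 0.08 FPKM in *mads1* and 3.05, 1.21 and 1.33 FPKM in WT. These 3 markers of lignifying cells were near 0 in every *mads1* library and highest in WT replicate 1, and the part that such cells play in the differences below was not tested. All 3 are on the bound list, so a change in *mads1* was a condition of their choice. On the same list, *HvDL* and the awn gene *HvSHI* had their lowest WT values in WT replicate 1, at 80.6 and 57.5 FPKM. *HvMADS2* had its highest WT value there, at 13.3 FPKM.

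Transport across plant membranes runs mostly on proton gradients. Proton pumps of the plasma membrane and the vacuole build the gradient from ATP or pyrophosphate, and carriers for nitrate, amino acids, peptides, potassium and sucrose use it to drive their cargo. ABC proteins instead spend ATP directly, and MATE proteins expel organic compounds in exchange for protons or sodium ions. In growing plant organs, proteins of these kinds can supply solutes and turgor for cell enlargement and deliver the building blocks of walls and cuticles. What they do in the lemma and awn was not tested here.

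Of the 20 transport genes, 18 had lower and 2 had higher FPKM in *mads1* than in WT, and for each of them the 3 values of one genotype lay outside the range of the other. In the whole table, groups that do not overlap were found for 21.9% of genes with *mads1* lower and for 21.8% with *mads1* higher, and among the genes tested for 26.5% and 29.4%. The median log2 difference of the 20 genes was -0.83, against 0.05 over all genes tested and -1.07 over the 585 other genes of the bound list. Lower FPKM in *mads1* was found for 90% of the transport genes and for 86.2% of those 585 genes. Nothing is read from these shares, because the genes were chosen by this contrast. Enough FPKM for a test was found for 15 of the 20, and 13 were past the threshold as lower and 2 as higher, beside the 14.5% and 6.6% of all genes tested. Nothing is read from this count either, since 3 of the 15 passed the filter through WT libraries alone and 1 through *mads1* libraries alone.

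**Figure D1:**
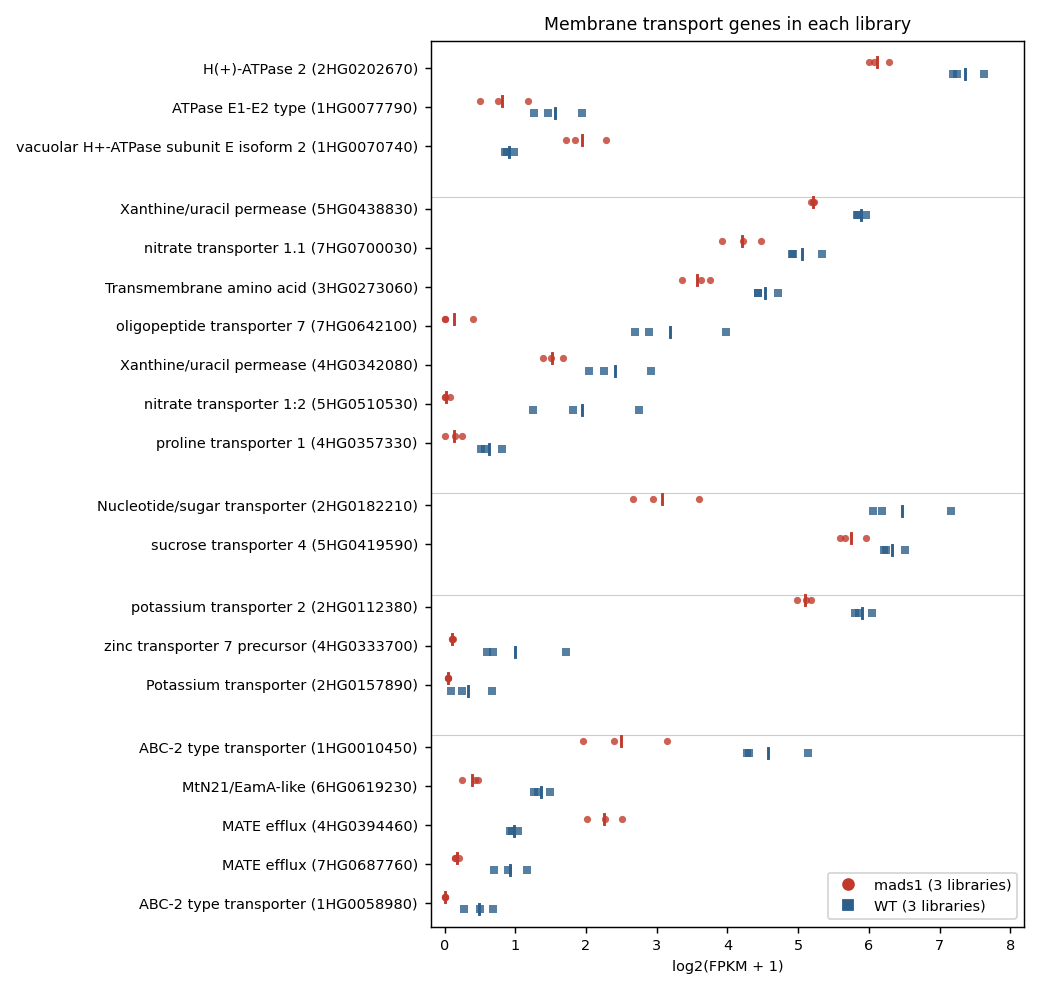
Level of each transport gene in the 3 *mads1* libraries (circles) and the 3 WT libraries (squares) as log2(FPKM + 1), in 5 classes separated by lines, with a vertical bar at each group's mean. The 2 genotypes do not overlap at any of the 20 genes, and *mads1* lies to the right of WT only at the vacuolar H+-ATPase subunit E gene and at 1 MATE efflux gene.

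The proton pump gene annotated as H(+)-ATPase 2 (HORVU.MOREX.r3.2HG0202670, chromosome 2H) was the most abundant of the 20. In Arabidopsis, H(+)-ATPase 2 is a plasma membrane pump that acidifies the wall and energizes uptake. It was at 66.1, 77.1 and 62.95 FPKM in *mads1* and at 197, 145 and 151 FPKM in WT. Every *mads1* library was far below every WT library. The mean of 68.7 ± 7.44 FPKM in *mads1* was 41.8% of the 164 ± 28.1 FPKM in WT (SD, n = 3 each), a log2 difference of -1.24.

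The other pump genes were low in both genotypes. Vacuolar H+-ATPase subunit E isoform 2 (HORVU.MOREX.r3.1HG0070740, chromosome 1H), part of the stalk of the vacuolar pump, was at 2.29, 3.84 and 2.57 FPKM in *mads1* and at 0.81, 0.97 and 0.84 FPKM in WT. It is 1 of the 2 genes that were higher in *mads1*, with a log2 difference of 1.04. ATPase E1-E2 type (HORVU.MOREX.r3.1HG0077790, chromosome 1H) belongs to the P-type ATPases, and its annotation names no cargo. It was at 0.68, 1.26 and 0.42 FPKM in *mads1* and at 2.86, 1.74 and 1.39 FPKM in WT, where the highest *mads1* value came close to the lowest WT value. Its log2 difference of -0.74 became -0.55 without WT replicate 1, below the fold change limit of 0.585 on this scale.

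Nitrogen compounds are the cargo named for 7 genes, and all 7 were lower in *mads1*. Nitrate transporter 1.1 (HORVU.MOREX.r3.7HG0700030, chromosome 7H) was at 17.6, 21.2 and 14.1 FPKM in *mads1* and at 39.3, 29.5 and 29.0 FPKM in WT. The Arabidopsis protein of that name takes up nitrate and also senses it. The *mads1* mean of 17.7 ± 3.55 FPKM was 54.1% of the WT mean of 32.6 ± 5.79 FPKM (SD, n = 3 each), a log2 difference of -0.85.

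In contrast, the nitrate transporter 1:2 gene (HORVU.MOREX.r3.5HG0510530, chromosome 5H) was nearly absent from *mads1*. Its *mads1* libraries were listed at 0, 0 and 0.05 FPKM, against 5.73, 1.37 and 2.52 FPKM in the WT libraries. The Arabidopsis protein of this name carries nitrate with low affinity and can import abscisic acid. WT replicate 1 was 2.95 times the mean of the other WT libraries, and without it the log2 difference of -1.91 became -1.51. With a pseudocount of 0.1 the difference was -4.62.

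Oligopeptide transporter 7 (HORVU.MOREX.r3.7HG0642100, chromosome 7H), of a carrier family for short peptides, was also near 0 in *mads1*. The *mads1* libraries had 0.32, 0 and 0 FPKM, against 14.8, 5.48 and 6.39 FPKM in the WT libraries. Every *mads1* library was below 0.5 FPKM and every WT library above 5 FPKM. The log2 difference was -3.05, and it was -2.66 without WT replicate 1. With pseudocounts of 0.5 and 0.1 it was -3.86 and -5.66, the largest fall of the 20 genes under both.

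Among the amino acid carriers, the gene annotated as transmembrane amino acid transporter (HORVU.MOREX.r3.3HG0273060, chromosome 3H) was at 11.3, 12.4 and 9.24 FPKM in *mads1* and at 25.2, 20.7 and 20.6 FPKM in WT. Its *mads1* mean was 49.6% of the WT mean, a log2 difference of -0.95. Proline transporter 1 (HORVU.MOREX.r3.4HG0357330, chromosome 4H) was below 1 FPKM in each library, at 0, 0.11 and 0.19 FPKM in *mads1* and at 0.76, 0.43 and 0.48 FPKM in WT. It had too few FPKM to be tested.

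A pair of genes carries the annotation xanthine/uracil permease, a family that moves nucleobases or ascorbate. The gene on chromosome 5H (HORVU.MOREX.r3.5HG0438830) had the narrowest spread of the abundant members, with 36.4, 36.2 and 35.2 FPKM in *mads1* and 61.4, 56.2 and 56.4 FPKM in WT. Its log2 difference was -0.68. The gene on chromosome 4H (HORVU.MOREX.r3.4HG0342080) was at 1.62, 2.19 and 1.84 FPKM in *mads1* and at 6.59, 3.11 and 3.79 FPKM in WT. Both were lower in *mads1*, at 61.9% and 41.9% of their WT means.

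Of the sugar transport genes, the gene annotated as nucleotide/sugar transporter (HORVU.MOREX.r3.2HG0182210, chromosome 2H) had the largest fall of all 20 genes on the log2(FPKM + 1) scale, an order that changed with the pseudocount. Proteins of this family bring activated sugars into the Golgi or the endoplasmic reticulum, where wall polysaccharides and glycoproteins are made. It was at 6.7, 11.1 and 5.34 FPKM in *mads1* and at 142, 65.8 and 72.1 FPKM in WT. The highest *mads1* library was far below the lowest WT library, although WT replicate 1 was 2.06 times the mean of the other WT libraries. The *mads1* mean of 7.71 ± 3.0 FPKM was 8.25% of the WT mean of 93.4 ± 42.4 FPKM (SD, n = 3 each), a log2 difference of -3.40, or -3.06 without WT replicate 1. With pseudocounts of 0.5 and 0.1 it was -3.49 and -3.56, and oligopeptide transporter 7 fell further.

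Sucrose transporter 4 (HORVU.MOREX.r3.5HG0419590, chromosome 5H) was at the other end of the range. Proteins of this type move sucrose together with protons, in barley across the vacuolar membrane. It was at 49.8, 61.2 and 47.4 FPKM in *mads1* and at 90.5, 73.5 and 75.0 FPKM in WT. The genotypes did not overlap, but *mads1* kept 66.3% of the WT mean. With a log2 difference of -0.59 it was the member nearest above the fold change limit of 0.585, and without WT replicate 1 it was at -0.49. Below that limit on this scale were the 3 genes annotated as proline transporter 1, ABC-2 type transporter on chromosome 1H (HORVU.MOREX.r3.1HG0058980) and potassium transporter family protein, all under 1 FPKM in every library.

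Potassium or zinc is the cargo named for 3 genes. Potassium transporter 2 (HORVU.MOREX.r3.2HG0112380, chromosome 2H) was at 33.5, 35.4 and 30.6 FPKM in *mads1* and at 65.0, 54.9 and 57.4 FPKM in WT. In Arabidopsis this carrier takes part in the expansion of shoot cells. The *mads1* mean of 33.2 ± 2.39 FPKM was 56.1% of the WT mean of 59.1 ± 5.29 FPKM (SD, n = 3 each), a log2 difference of -0.81.

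The other potassium gene and the zinc gene were near the lower end of what the table lists. A potassium transporter family gene (HORVU.MOREX.r3.2HG0157890, chromosome 2H) was at 0.03 FPKM in each *mads1* library and at 0.59, 0.19 and 0.06 FPKM in WT. Zinc transporter 7 precursor (HORVU.MOREX.r3.4HG0333700, chromosome 4H), of a family that brings zinc and other metals into the cell, was at 0.07, 0.07 and 0.08 FPKM in *mads1* and at 2.28, 0.6 and 0.52 FPKM in WT. Both were highest in WT replicate 1, and the 2 other WT libraries were much closer to *mads1*. Without WT replicate 1, their log2 differences of -0.29 and -0.90 became -0.12 and -0.54.

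ABC-2 type transporter is the annotation of 2 genes on chromosome 1H. In Arabidopsis, genes with this annotation belong to the ABCG group, whose members export wax and cutin precursors, hormones or other compounds. HORVU.MOREX.r3.1HG0010450 was at 4.26, 7.88 and 2.87 FPKM in *mads1* and at 34.3, 18.4 and 18.7 FPKM in WT, a log2 difference of -2.07. Its *mads1* mean was 21.0% of the WT mean. HORVU.MOREX.r3.1HG0058980 was listed at 0 in all 3 *mads1* libraries and at 0.6, 0.21 and 0.41 FPKM in WT.

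Of the 2 genes annotated as MATE efflux, 1 was higher and 1 lower in *mads1*. HORVU.MOREX.r3.4HG0394460 on chromosome 4H was at 3.03, 3.8 and 4.68 FPKM in *mads1* and at 0.94, 0.9 and 1.06 FPKM in WT. With a *mads1* mean 3.97 times the WT mean and a log2 difference of 1.29, it was the largest rise among the 20 genes. HORVU.MOREX.r3.7HG0687760 on chromosome 7H was at 0.11, 0.15 and 0.11 FPKM in *mads1* and at 0.62, 1.24 and 0.86 FPKM in WT. This family carries flavonoids, citrate, alkaloids or hormones, and the annotation names no cargo for either gene.

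The gene annotated as nodulin MtN21/EamA-like (HORVU.MOREX.r3.6HG0619230, chromosome 6H) belongs to a family with exporters of amino acids. It was at 0.35, 0.18 and 0.38 FPKM in *mads1* and at 1.49, 1.41 and 1.82 FPKM in WT. It and the lower MATE gene were the 2 lower members whose highest WT value was not in WT replicate 1.

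**Figure D2:**
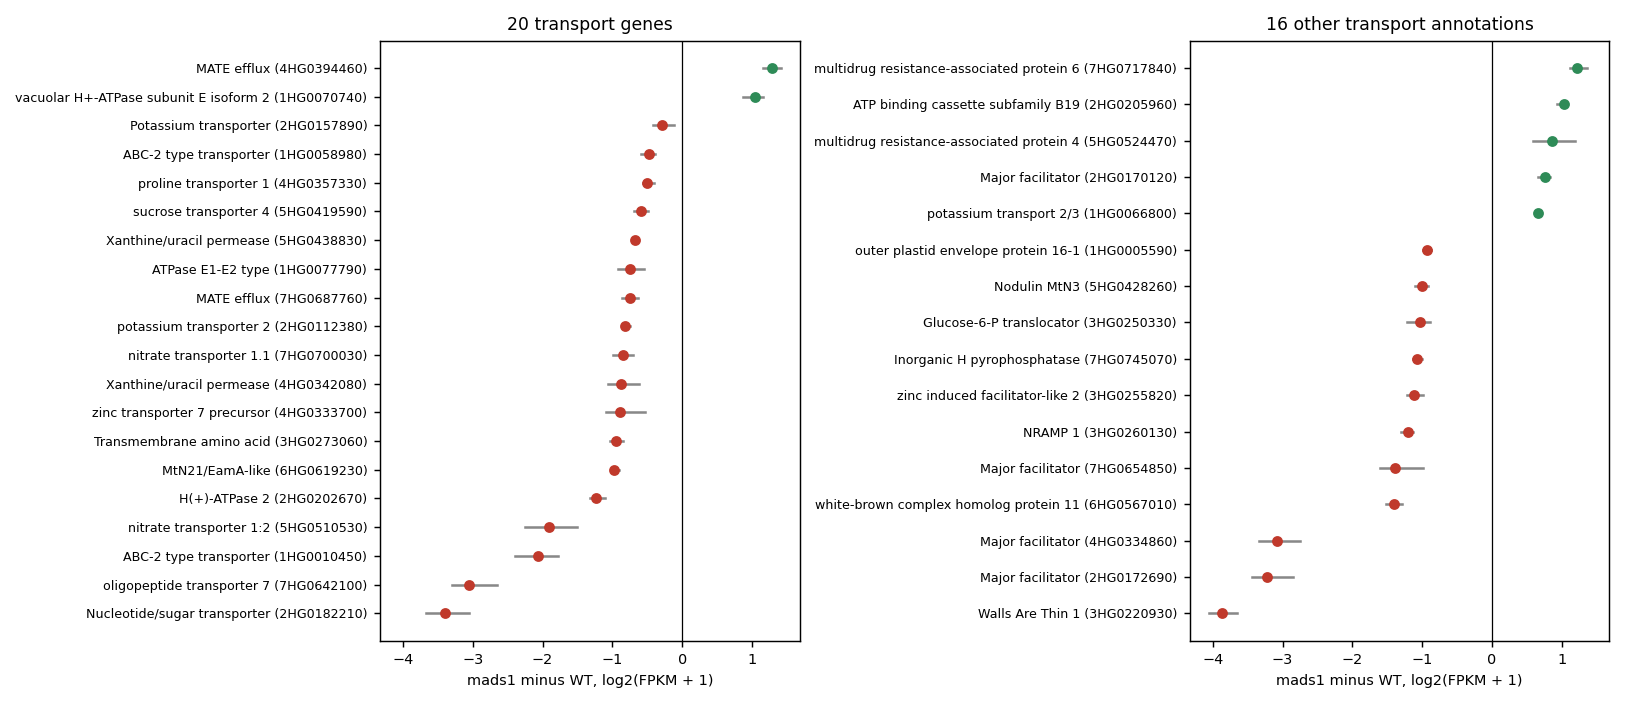
Log2 difference, *mads1* minus WT on log2(FPKM + 1), of the 20 transport genes (left) and of 16 other genes of the bound list whose annotation names a transporter or pump without the words used (right), with the range over leaving out each library in turn as a grey line; red dots are lower and green dots higher in *mads1*. The differences ran from -3.40 to 1.29 on the left and from -3.87 to 1.22 on the right. All these genes were chosen by this contrast and have genotypes that do not overlap, so leaving out a library could not change a sign.

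The level of the 20 genes in WT varied widely. In WT, 8 of them averaged at least 10 FPKM, all 8 were lower in *mads1*, and 6 of the 8 kept between 40% and 70% of the WT mean. The exceptions were the nucleotide/sugar transporter gene and the ABC-2 type gene HORVU.MOREX.r3.1HG0010450. The other 12 averaged under 10 FPKM in WT, 6 of them under 1 FPKM, against 34.0% of the whole table under 1 FPKM. Both genes that were higher in *mads1* were in this low range. By mean WT level, H(+)-ATPase 2 ranked above 96.4% of the table, the nucleotide/sugar transporter gene above 92.9% and sucrose transporter 4 above 91.4%.

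**Figure D3:**
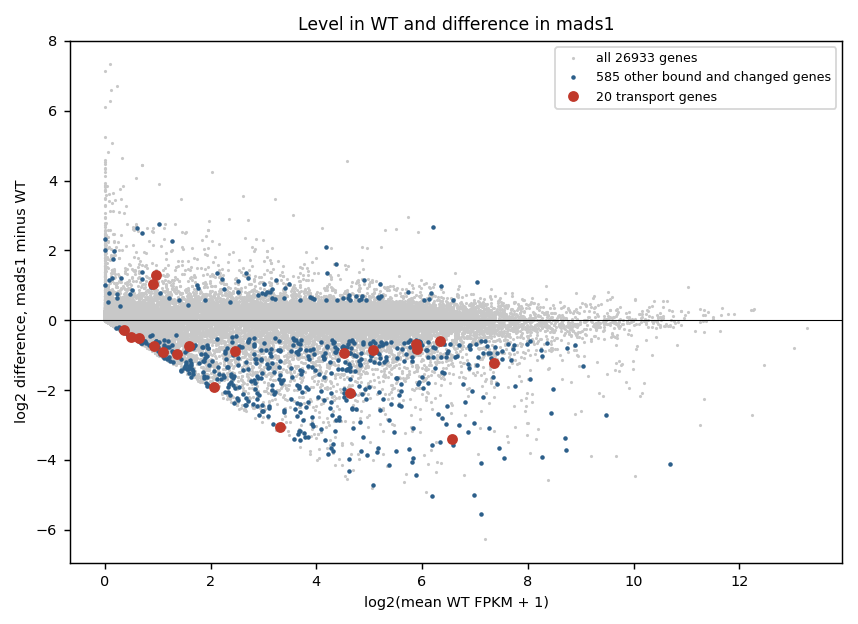
Log2 difference, *mads1* minus WT, against the mean level in WT for all genes of the table (grey), the 585 other bound and changed genes (blue) and the 20 transport genes (red). The 8 transport genes with at least 10 FPKM in WT all lie below 0, and the 2 above 0 averaged under 1 FPKM in WT.

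The lead of WT replicate 1 was uneven across the members. At the 18 lower genes, WT replicate 1 was at a median of 1.75 times the mean of WT replicates 2 and 3. This median was 1.38 times at the other bound genes that were lower. It was 1.17 times at the genes called lower outside the bound list and 0.974 times over all genes tested. At the 11 lower genes among the 16 other transport annotations of the bound list it was 1.21 times, below the 1.38 times. Among the lower members, the ratio ran from 1.09 to 2.06 times at the 8 with at least 10 FPKM in WT. At the 10 with less it ran from 0.590 to 4.72 times. WT replicate 1 reached 4.72 times at the potassium transporter family gene and 4.07 times at the zinc gene. At the xanthine/uracil permease gene on chromosome 5H it was 1.09 times. The smaller the share of the WT level (replicates 2 and 3) left in *mads1*, the larger the lead of WT replicate 1 tended to be, with Spearman's rho of -0.50 across the 18 genes and -0.33 across the 2607 genes called lower. This is a description across genes, which share the same libraries and the same divisor. In *mads1*, replicate 2 had the highest value at 11 of the 18 members with a single highest library, against 29.9% over all genes tested. It also had the highest *mads1* value at 10 of the 16 other transport annotations, so this was not particular to the members. With WT replicate 1 left out, the median log2 difference of the 20 genes was -0.68. Leaving it out could not make the genotypes overlap at the 18 lower genes, since they did not overlap with it.

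**Figure D4:**
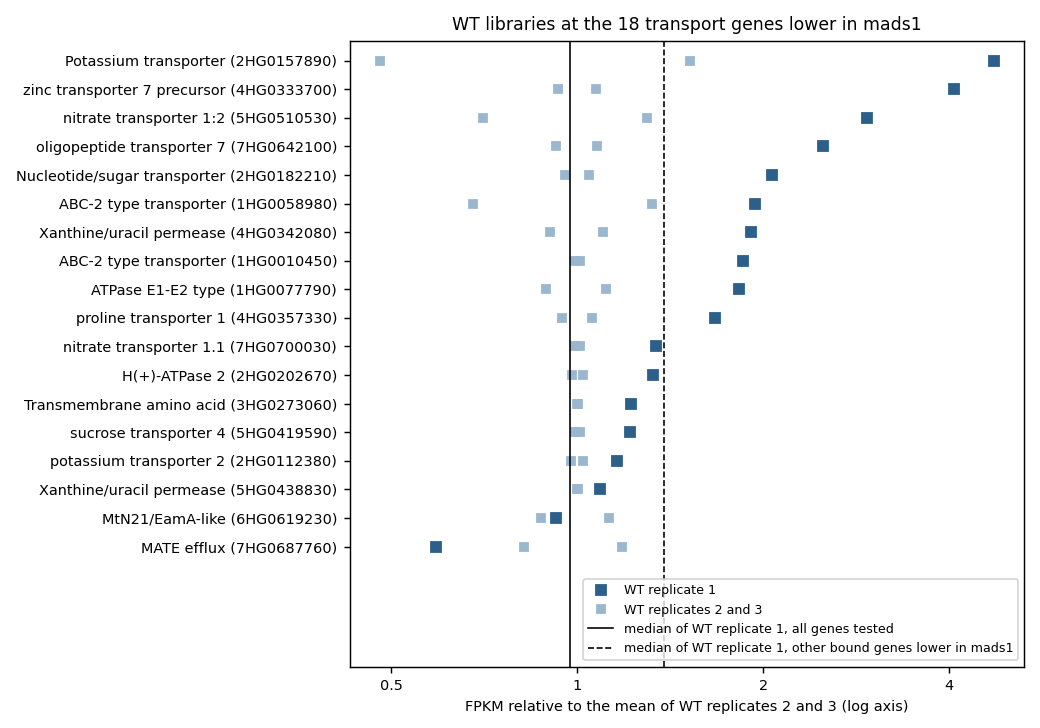
FPKM of WT replicate 1 (dark) and of WT replicates 2 and 3 (light) at the 18 transport genes lower in *mads1*, each divided by the mean of WT replicates 2 and 3, on a log axis. WT replicate 1 is the highest WT library at 16 of the 18 genes, and the lines mark its median over all genes tested (0.974, solid) and over the other bound genes lower in *mads1* (1.38, dashed).

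The words used leave out transporters whose annotation does not say so. In the bound list, 16 further genes carry the name of a transporter family or a pump, and they too were chosen by this contrast. Lower FPKM in *mads1* was found for 11 of the 16 and higher FPKM for 5, and the median log2 difference was -1.06. Past the threshold were 11 as lower and 4 as higher of the 15 tested, beside the 14.5% and 6.6% of all genes tested. Of these 15, 3 passed the filter through WT libraries alone and 1 through *mads1* libraries alone, so nothing is read from the count. The gene annotated as Walls Are Thin 1 (HORVU.MOREX.r3.3HG0220930), which in Arabidopsis exports auxin from the vacuole and is needed for the walls of fibres, had the largest difference on the log2(FPKM + 1) scale. It was at 0.96, 1.72 and 0.7 FPKM in *mads1* and at 40.3, 23.1 and 27.3 FPKM in WT, a log2 difference of -3.87. A major facilitator superfamily gene (HORVU.MOREX.r3.2HG0172690) followed with -3.22, at 0.26, 0.25 and 0.56 FPKM in *mads1* and at 20.1, 8.33 and 9.2 FPKM in WT. As a share of the WT mean, the major facilitator gene had less left in *mads1*, 2.84% against 3.73% for Walls Are Thin 1. The 3 other genes with the major facilitator annotation lay in both directions. HORVU.MOREX.r3.4HG0334860 was abundant, at 16.1, 23.9 and 11.0 FPKM in *mads1* and at 227, 116 and 114 FPKM in WT, a log2 difference of -3.07. HORVU.MOREX.r3.7HG0654850 had a log2 difference of -1.38, with under 0.5 FPKM in every *mads1* library and 3.92, 1.2 and 1.1 FPKM in WT. HORVU.MOREX.r3.2HG0170120 was higher, at 1.67, 1.13 and 1.28 FPKM in *mads1* and at 0.31, 0.33 and 0.55 FPKM in WT, a log2 difference of 0.75. Major facilitator proteins are carriers of many kinds of small molecules, and the annotation names no cargo for any of these genes.

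Among these genes is a further proton pump. The inorganic H pyrophosphatase gene (HORVU.MOREX.r3.7HG0745070), a pump that acidifies the vacuole with pyrophosphate, was at 72.2, 79.5 and 69.5 FPKM in *mads1* and at 173, 146 and 151 FPKM in WT. Its log2 difference of -1.08 stood beside the -1.24 of H(+)-ATPase 2. The potassium transport 2/3 gene (HORVU.MOREX.r3.1HG0066800), in Arabidopsis the name of a potassium channel of the phloem, was higher, at 21.7, 23.9 and 21.2 FPKM in *mads1* against 14.0, 13.2 and 13.8 FPKM in WT. Its log2 difference was 0.67, where potassium transporter 2 had -0.81.

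Plastid and sugar carriers of this further list were lower in *mads1*. A glucose-6-phosphate/phosphate translocator gene (HORVU.MOREX.r3.3HG0250330), of a family that brings sugar phosphate into plastids, was at 143, 191 and 120 FPKM in *mads1* and at 349, 280 and 294 FPKM in WT. Outer plastid envelope protein 16-1 (HORVU.MOREX.r3.1HG0005590), a pore protein of the plastid envelope, was at 89.2, 74.7 and 80.2 FPKM in *mads1* and at 150, 159 and 157 FPKM in WT. Unlike most lower genes, it had its lowest WT value in WT replicate 1. A nodulin MtN3 gene (HORVU.MOREX.r3.5HG0428260), of the family of SWEET sugar carriers, was at 1.76, 1.92 and 1.32 FPKM in *mads1* and at 5.05, 4.37 and 3.68 FPKM in WT. The log2 differences of these 3 genes were -1.04, -0.93 and -1.01.

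Metal carriers were lower as well. Natural resistance-associated macrophage protein 1 (HORVU.MOREX.r3.3HG0260130), named for a family that takes up manganese and iron, was at 0.13, 0.44 and 0.21 FPKM in *mads1* and at 2.11, 2.0 and 1.59 FPKM in WT. Zinc induced facilitator-like 2 (HORVU.MOREX.r3.3HG0255820), of a family tied to zinc and potassium balance in Arabidopsis, was at 4.55, 6.0 and 6.64 FPKM in *mads1* and at 13.3, 13.6 and 13.4 FPKM in WT. At this gene the WT libraries were nearly equal, and the log2 difference was -1.11.

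The ABC genes of this further list lay in both directions, whereas both ABC-2 type genes described above were lower. White-brown complex homolog protein 11 (HORVU.MOREX.r3.6HG0567010), in Arabidopsis an exporter of cuticle lipids, was at 1.48, 1.85 and 1.09 FPKM in *mads1* and at 5.96, 5.57 and 4.99 FPKM in WT. ATP binding cassette subfamily B19 (HORVU.MOREX.r3.2HG0205960), in Arabidopsis an auxin exporter, was higher, at 70.8, 73.95 and 77.8 FPKM in *mads1* and at 31.2, 38.6 and 38.3 FPKM in WT. The genes annotated as multidrug resistance-associated protein 6 and 4, of an ABC group that loads the vacuole with conjugated compounds, had log2 differences of 1.22 and 0.86. Protein 6 (HORVU.MOREX.r3.7HG0717840) was at 15.0, 16.6 and 11.6 FPKM in *mads1* and at 5.98, 4.93 and 5.77 FPKM in WT. Protein 4 (HORVU.MOREX.r3.5HG0524470) had too few FPKM to be tested. It was at 1.78, 2.77 and 0.64 FPKM in *mads1* and at 0.48, 0.34 and 0.46 FPKM in WT, and its difference was 0.58 without *mads1* replicate 2.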

How the data were processed

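After trimming and mapping to barley, the authors computed FPKM per gene with RSEM 1.3.3, and these are the deposited values. The aligner and genome build are not given in the sources used here. The identifiers are those of Morex version 3, and chromosomes were read from them. Samples were grouped by the genotype in their labels. The replicates are separate pools of tissue in the methods, and at most 2.4% of values were equal between any 2 libraries.

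From the deposited FPKM, log2(FPKM + 1) was fitted with limma 3.58.1 in R 4.3.3 (eBayes with a trend) for genes that reached 1 FPKM in 3 or more of the 6 libraries, with Benjamini-Hochberg adjustment over all 17996. The fit was tested on simulated data. The members were described by values, mean, SD and log2 difference, with no test, because the study chose them by this contrast. All 20 were named, and the 16 further genes by their largest differences, with others chosen after their values were seen. The members and lists were chosen with earlier results of these data known. Annotation is the study's.

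Alternatives changed the pseudocount (0.1, 0.5), the filter (none, 5 FPKM) and the scaling (3 others), dropped the trend or the fold change limit, added a replicate block, or left out each library. A planned list of transport genes outside the bound list was not made, since the reference table used here gives no annotation for these identifiers. No sequences or coordinates are given for the same reason.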

Additional observations from a re-analysis of the deposited data

How the results depend on the processing

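All 20 transport genes kept the sign of their log2 difference under each alternative that recomputed it. The genes were chosen by this contrast and their genotypes did not overlap. Another pseudocount, the replicate block or a left-out library therefore could not change a sign, and only another scaling could. Across the alternatives the log2 differences moved by more than the spread between replicates in 21 cases and by less in the other 219. Of the 21 cases, 20 were under another pseudocount and 1 was after rescaling to the same total. The median over the 20 genes was -1.29 with a pseudocount of 0.1, against -0.83 with 1, and it was -0.90 to -0.68 with a library left out. Members past the threshold as lower numbered 10 to 13 with a library left out, and 2 were past it as higher each time. Of all 17996 genes tested, 2380 to 2698 were then called lower and 1022 to 1460 higher. Nothing is read from the member counts, since the members were chosen by this contrast. The member calls lost with a library left out were those of the ATPase E1-E2 type gene, sucrose transporter 4 and the xanthine/uracil permease gene on chromosome 4H. Those of the ATPase and sucrose genes were also lost under quantile normalization, with log2 differences of -0.63 and -0.57. The sucrose gene also lost its call after rescaling to the same total (-0.52), and the ATPase gene lost its call with no filter, where its difference stayed at -0.74 and the count of lower members stayed at 13. With a filter at 5 FPKM, which removes genes by their level, 0 of the higher members and 7 of the 16 further genes (as lower) were left past the threshold, and 769 genes of the table were higher. Without the fold change limit, limma called 7779 genes of the table, 4011 lower and 3768 higher, against 3794, 2607 and 1187 with it. With the replicate number as a block, 3781 genes were called, and the block changed no member's call. The deviations of same-numbered libraries correlated at -0.07, -0.28 and 0.20 across genes, so the numbers were not taken as pairs. The planned list of transport genes outside the bound list has no value under any setting.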

Other observations

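Some genes of the bound list encode partners of transporters or metal carriers rather than transporters, and these were chosen after the data were examined. The gene that the study names *Cycle 50A* among its cell cycle genes carries the annotation ALA-interacting subunit 5, which in Arabidopsis is the name of a partner subunit of lipid flippases (HORVU.MOREX.r3.5HG0509390). It was at 0.16, 0.73 and 0.17 FPKM in *mads1* and at 4.71, 3.91 and 3.41 FPKM in WT. The gene annotated as glutamine dumper 4 (HORVU.MOREX.r3.6HG0574650), of a family that raises amino acid export in Arabidopsis, was at 0, 0.42 and 1.65 FPKM in *mads1* and at 8.96, 5.8 and 7.95 FPKM in WT. The gene annotated as CAX-interacting protein 2 (HORVU.MOREX.r3.5HG0466010), named for a partner of vacuolar calcium exchangers, was at 24.9, 28.1 and 20.5 FPKM in *mads1* and at 37.65, 39.4 and 40.2 FPKM in WT. Of a pair of genes annotated as heavy metal transport/detoxification, a family of metal-binding proteins, HORVU.MOREX.r3.5HG0537970 was at 7.76, 11.9 and 4.81 FPKM in *mads1* and at 63.4, 39.4 and 40.1 FPKM in WT. The other, HORVU.MOREX.r3.4HG0410950, was at 7.44, 6.85 and 4.03 FPKM in *mads1* and at 17.1, 11.1 and 11.6 FPKM in WT. Their *mads1* means were 17.2% and 46.1% of their WT means. The genotypes did not overlap at any of these genes, and in the whole table at 21.9% of genes with *mads1* lower. Nothing is read from this. Each of these genes had been chosen by the study for its change in the same libraries.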
